A study of Mus musculus with 14 samples.

Results

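The genes examined here are 9 genes of the glucocorticoid response and the metallothionein family: the glucocorticoid receptor gene Nr3c1, the receptor targets Sgk1, Tsc22d3, Fkbp5 and Zbtb16, the cell cycle inhibitor Cdkn1a, the metallothioneins Mt1 and Mt2, and the acute phase gene Lcn2. They were chosen by name, and all 9 were found among the 49585 genes of the deposited tables. Bulk RNA-seq libraries were made from mouse hind limb muscle: 3 from uninjured wild-type (WT) animals, 3 from injured WT, 3 from uninjured Myf6 knockout (KO) and 3 from injured KO, 4 groups in all. Myf6 (MRF4) is a myogenic transcription factor of the Myod1 family that is abundant in mature muscle fibres. The series asks whether Myf6 controls signals that muscle sends to its stem cells. The labels give no strain, age, sex, kind of injury, time after injury or knockout allele. Each animal number occurs once with L (uninjured) and once with R (injured), so the libraries of a genotype are read here as 2 libraries from each of 3 animals. No number is shared between genotypes, so genotype cannot be told apart from litter or handling. A list of DNA sites bound by Flag-tagged Myf6 in primary myotubes, cultured from adult muscle satellite cells, came from 1 ChIP-seq library and 1 control.

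Glucocorticoids are adrenal steroid hormones. They bind the receptor encoded by Nr3c1, which then moves to the nucleus and binds glucocorticoid response elements, paired sites in DNA with a short spacer between them. In skeletal muscle the hormone is known for promoting protein breakdown and shifting fuel use, and Sgk1, Tsc22d3, Fkbp5 and Zbtb16 are widely used as readouts of receptor activity. Metallothioneins are small cysteine-rich proteins that bind zinc and copper. Their genes are induced by metals through metal response elements, and also by glucocorticoids and oxidative stress, and they rise in wasting muscle.

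Depth, recovered from the deposited RPM values (reads on a gene scaled to the library's reads on genes), ran from 1880087 to 49392472 reads per library, and 3 reads, taken as the detection floor, correspond to 0.0607 to 1.60 RPM. Uninjured WT replicate 2 was the shallowest. RPM is not divided by gene length, so levels are compared here between libraries and not between genes. Myf6 was at 25.0 to 121 RPM in the WT libraries and 1.86 to 3.46 RPM in the KO libraries. Markers of muscle fibres summed to 110091 RPM or more in every library. Injured KO replicate 2 stood apart from the other injured KO libraries, with 23.2% of reads on mitochondrial genes against 4.95% and 4.30%, and 288 RPM of the nuclear RNA Malat1 against 80.4 and 73.4 RPM. The WT libraries ran from 8.35% to 22.3% and from 213 to 494 RPM. Uninjured KO libraries ran from 3.63% to 15.3% and from 81.1 to 106 RPM. Malat1 in injured KO replicate 2 was thus in the WT range, and every other KO library was below that range. Beyond the scalings tried, the part of these shifts in the KO minus WT differences was not tested. In bulk tissue, fewer cells of a type and less RNA per cell cannot be told apart.

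Of the 9 genes, Sgk1 was lower in KO muscle without overlap in both states, and Tsc22d3 was so in uninjured muscle only. Cdkn1a was higher in injured KO muscle without overlap. Fkbp5, Zbtb16, Nr3c1, Mt1 and Mt2 had overlapping groups in both states, although the estimates of Zbtb16 were lower in KO in both. None of these differences passed limma's adjusted p of 0.05, the threshold used throughout. The 8 genes above the filter of 1 RPM in at least 3 libraries were tested, and Lcn2 was not. In uninjured muscle 0 of 8 passed, where 0.281% of all 12460 genes tested passed, and in injured muscle 0 of 8, where 0.269% of 12625 passed. At an unadjusted limma p under 0.05 there were 2 of 8 in uninjured muscle (14.2% of all genes) and 2 of 8 in injured muscle (10.3% of all genes). KO and WT libraries did not overlap for 2 of 8 genes in each state, against 21.7% of all genes in uninjured and 16.9% in injured muscle, and these shares of the members and of all genes lie close together. With the log2 values of each animal's 2 libraries averaged, 0 of 8 passed (1.23% of 12570 genes passed), 3 of 8 had an unadjusted limma p under 0.05 (16.4% of all genes), and 3 of 8 did not overlap (22.5% of all genes). With 3 against 3, an exact permutation test cannot give a p under 0.1.

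**Figure D1:**
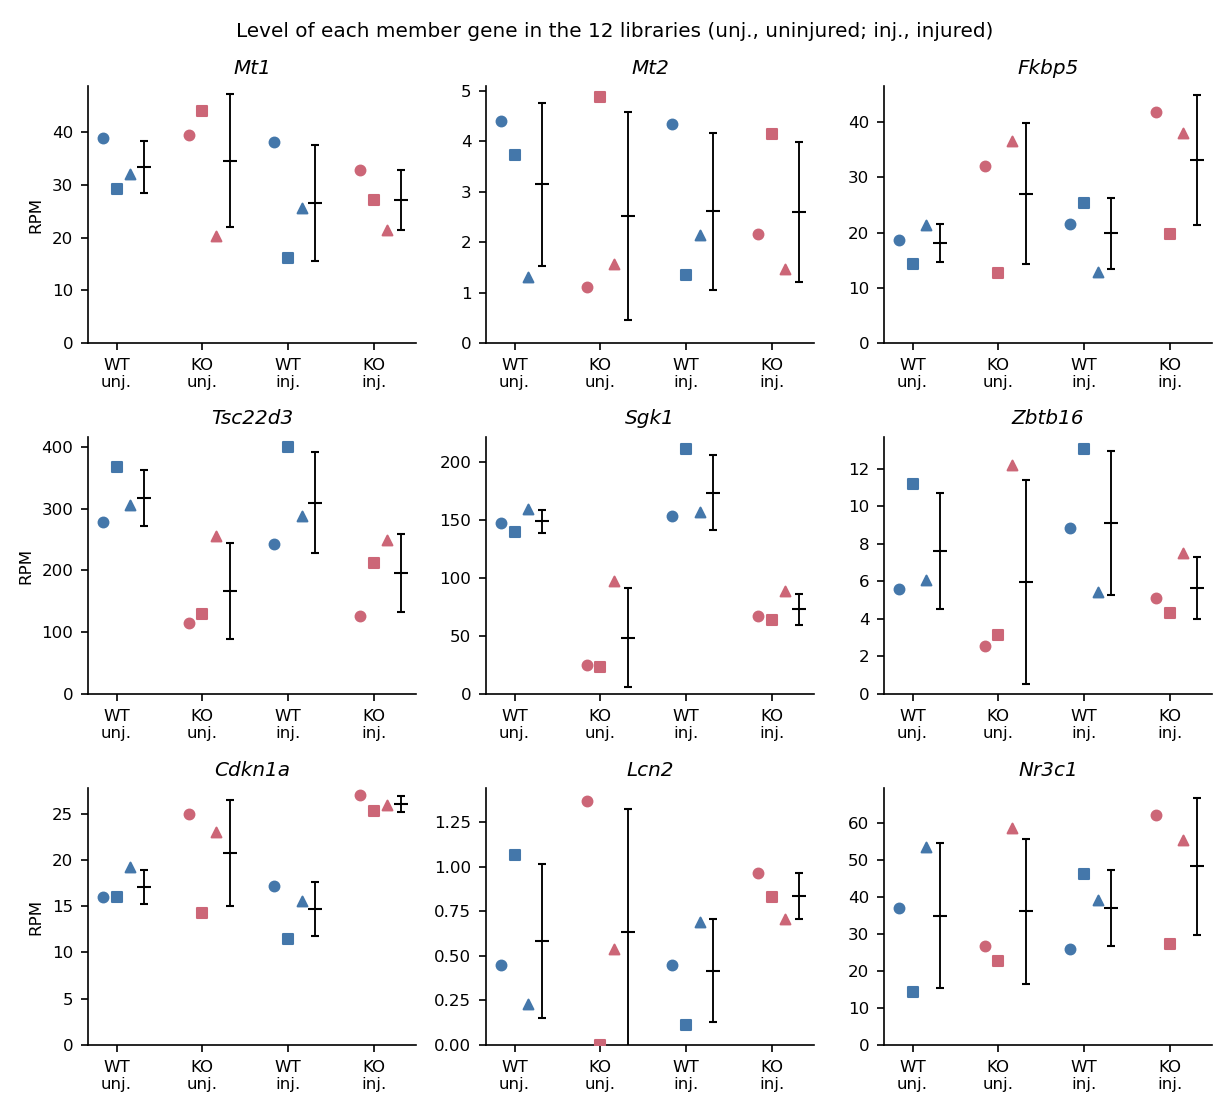
Level in RPM (vertical axis, from 0) of each of the 9 genes in the 12 libraries, by group (horizontal axis; WT blue, KO red; circle, square and triangle mark replicates 1, 2 and 3), with mean and SD (black) of 3 libraries. All 6 KO values of Sgk1, 23.4 to 97.5 RPM, lie below all 6 WT values, 139 to 211 RPM, while the groups of Mt1 and Mt2 overlap.

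Nr3c1 (ENSMUSG00000024431.14), the receptor itself, did not separate the genotypes. In uninjured muscle it was at 37.0, 14.4 and 53.3 RPM in WT and 26.8, 22.7 and 58.5 RPM in KO. In injured muscle it was at 26.0, 46.0 and 39.0 RPM in WT and 62.1, 27.2 and 55.3 RPM in KO. The lowest of all 12 values came from the shallowest library, where it rests on 27 reads. The KO minus WT difference on the log2(RPM + 1) scale was 0.10 (SE 0.51, limma adjusted p 0.954) in uninjured and 0.33 (SE 0.36, adjusted p 0.793) in injured muscle. The 95% interval in uninjured muscle, -1.06 to 1.26, leaves room for a difference of more than 2-fold either way. Genes for the receptor's cofactors, chaperones and steroid-converting enzymes, 18 in the list and 17 tested, had 0 called in either state. Their median KO minus WT difference was -0.13 in uninjured muscle, where the median of all genes was -0.18, and -0.01 in injured muscle, where it was 0.01. The 2 with the smallest unadjusted p in uninjured muscle were Ptges3, a chaperone of the receptor (-0.71, adjusted p 0.304), and Ep300, a coactivator (-0.92, adjusted p 0.346).

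Sgk1 (ENSMUSG00000019970.15) encodes a kinase that controls ion transport and cell survival and is a direct target of the glucocorticoid receptor. Without injury it was at 147, 139 and 159 RPM in the 3 WT libraries and 25.1, 23.4 and 97.5 RPM in the 3 KO libraries. After injury it was at 153, 211 and 156 RPM in WT and 67.2, 63.7 and 88.4 RPM in KO. Every KO library was below every WT library of either state, a separation shown by 2.33% of the 12214 genes tested in both. The group means ran from 48.7 ± 42.3 RPM (SD, n = 3) in uninjured KO and 73.1 ± 13.4 in injured KO to 149 ± 10.1 in uninjured WT and 174 ± 32.6 in injured WT. The neighbours within a genotype overlapped, and the gap lay between the genotypes. The mean RPM was 3.05-fold higher in WT than in KO in uninjured muscle and 2.37-fold higher in injured muscle.

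On the log2 scale Sgk1 differed by -1.91 (SE 0.49, 95% interval -3.02 to -0.80, limma adjusted p 0.151) in uninjured muscle. In injured muscle it differed by -1.23 (SE 0.21, 95% interval -1.74 to -0.73, limma adjusted p 0.105). The unadjusted p was 0.00359 and 0.000654. With 1 value per animal the difference was -1.57 (SE 0.33, limma adjusted p 0.0632), lower in 3 of 3 KO animals. In the authors' deposited table Sgk1 had a q-value of 0.0439 in uninjured and 0.00671 in injured muscle, where 1.43% and 0.893% of genes with a q-value were under 0.05. It was the only one of the 9 genes under that threshold in either table. With 1 library left out at a time, the difference in uninjured muscle ran from -2.57 to -1.56. It passed (limma adjusted p 0.00213) only without KO replicate 3, the KO library nearest to WT, whose removal had to enlarge the difference, so that value lends no support. In injured muscle the range was -1.38 to -1.09, and it passed only without KO replicate 2, which stands apart (-1.14, limma adjusted p 0.0129), a fit in which 2343 of all 12312 genes passed.

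Sgk1 spans chr10:21882184-21999903 (GRCm38) and has 6 start sites in the RefSeq promoter table of GRCm38.p6. A glucocorticoid response element was searched there as AGAACA and TGTTCT 3 bases apart, with at most 2 mismatches, in the 250 bases before each start. It was found before 1.35% of 21262 start sites of protein-coding genes. Among the start sites of these genes it was found before 2, both of Sgk1, and the match at the start at 21993890 had 0 mismatches. The AGAACA site alone, on either strand, occurred 3 times before that start, 2 of them being the arms of the pair, and 0.132% of promoters held as many. The stretches are shown because Sgk1 and Tsc22d3 were the receptor targets with KO libraries entirely below WT in uninjured muscle. The capitals mark the paired element, both Sgk1 stretches lie within the gene's own span on the plus strand, and both read 5′ to 3′.
Sgk1, chr10:21993693-21993722, 197 to 168 bases before the start, 0 mismatches: atgcggaaAGAACAGAATGTTCTcggagat
Sgk1, chr10:21985913-21985942, 191 to 162 bases before the start, 2 mismatches: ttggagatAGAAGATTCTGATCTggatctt

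Tsc22d3 (ENSMUSG00000031431.13) encodes GILZ, the glucocorticoid-induced leucine zipper, which carries part of the hormone's anti-inflammatory action. In uninjured muscle it was at 278, 366 and 305 RPM in WT and 114, 129.7 and 256 RPM in KO. In injured muscle it was at 242, 400.1 and 287 RPM in WT and 126.9, 212 and 249.5 RPM in KO. The uninjured groups did not overlap, and in injured muscle KO replicate 3 lay above WT replicate 1. The log2 difference was -1.01 (SE 0.33, limma adjusted p 0.219) in uninjured and -0.68 (SE 0.31, limma adjusted p 0.523) in injured muscle. With 1 value per animal it was -0.84 (SE 0.29, limma adjusted p 0.208), and the 3 KO animals lay below the 3 WT animals. With 1 library left out at a time, the difference ran from -1.36 to -0.78 in uninjured and from -0.88 to -0.40 in injured muscle, the smallest in each state without KO replicate 1. It passed (limma adjusted p 0.0391) only without uninjured KO replicate 3, again the KO library nearest to WT, which had to enlarge it and lends no support.

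Tsc22d3 spans chrX:140539528-140600522 on the minus strand, with 3 start sites in the RefSeq table. The AGAACA site was found once before the start farthest upstream, and 13.7% of promoters held at least 1. No pair was found in the windows searched. The 250 bases before that start are shown beside those of Sgk1 for comparison, from RefSeq, GRCm38.p6, minus strand, with the site in capitals.
Tsc22d3, chrX:140600523-140600772: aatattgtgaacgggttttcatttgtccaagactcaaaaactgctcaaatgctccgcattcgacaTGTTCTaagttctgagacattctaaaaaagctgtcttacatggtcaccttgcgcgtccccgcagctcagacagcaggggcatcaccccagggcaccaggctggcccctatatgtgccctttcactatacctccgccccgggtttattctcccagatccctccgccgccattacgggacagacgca

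Fkbp5 (ENSMUSG00000024222.16) encodes FKBP51, an Hsp90 co-chaperone that lowers the receptor's affinity for hormone and is itself induced by it. Its estimates were higher in KO, opposite to Sgk1 and Tsc22d3. Without injury it was at 18.6, 14.4 and 21.3 RPM in WT and 31.99, 12.6 and 36.5 RPM in KO. After injury it was at 21.5, 25.4 and 12.8 RPM in WT and 41.8, 19.8 and 38.0 RPM in KO. In both states KO replicates 1 and 3 were above every WT library. KO replicate 2, the same animal in both, was below every WT library without injury and within the WT range after it. The log2 difference was 0.44 (SE 0.42, limma adjusted p 0.680) in uninjured and 0.69 (SE 0.36, limma adjusted p 0.559) in injured muscle. With 1 library left out at a time, the difference ran from 0.17 (without KO replicate 3) to 0.90 (without KO replicate 2, limma adjusted p 0.190) in uninjured muscle, and from 0.42 (without WT replicate 3) to 1.02 (without KO replicate 2) in injured muscle. Without KO replicate 2, the KO animal with the lowest Fkbp5, it passed in injured muscle (limma adjusted p 0.0401) and over animal means (0.96, limma adjusted p 0.00601). In those 2 fits 2343 of 12312 and 2409 of 12323 genes passed, and removing that animal had to enlarge the difference.

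Zbtb16 (ENSMUSG00000066687.5) encodes PLZF, a zinc finger repressor that is strongly induced by glucocorticoids in many tissues. In uninjured muscle it was at 5.60, 11.2 and 6.06 RPM in WT and 2.55, 3.15 and 12.2 RPM in KO. In injured muscle it was at 8.85, 13.1 and 5.43 RPM in WT and 5.11, 4.32 and 7.51 RPM in KO. The groups overlapped in both states, and the highest uninjured value came from KO replicate 3, the library that was also nearest to WT for Sgk1 and Tsc22d3. The log2 difference was -0.51 (SE 0.54, limma adjusted p 0.716) in uninjured and -0.56 (SE 0.33, limma adjusted p 0.604) in injured muscle. With 1 library left out at a time, the first value ran from -1.11 (without KO replicate 3) to -0.16 (without KO replicate 1), and the second from -0.85 (without WT replicate 3) to -0.29 (without WT replicate 2), with no limma adjusted p under 0.05.

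**Figure D2:**
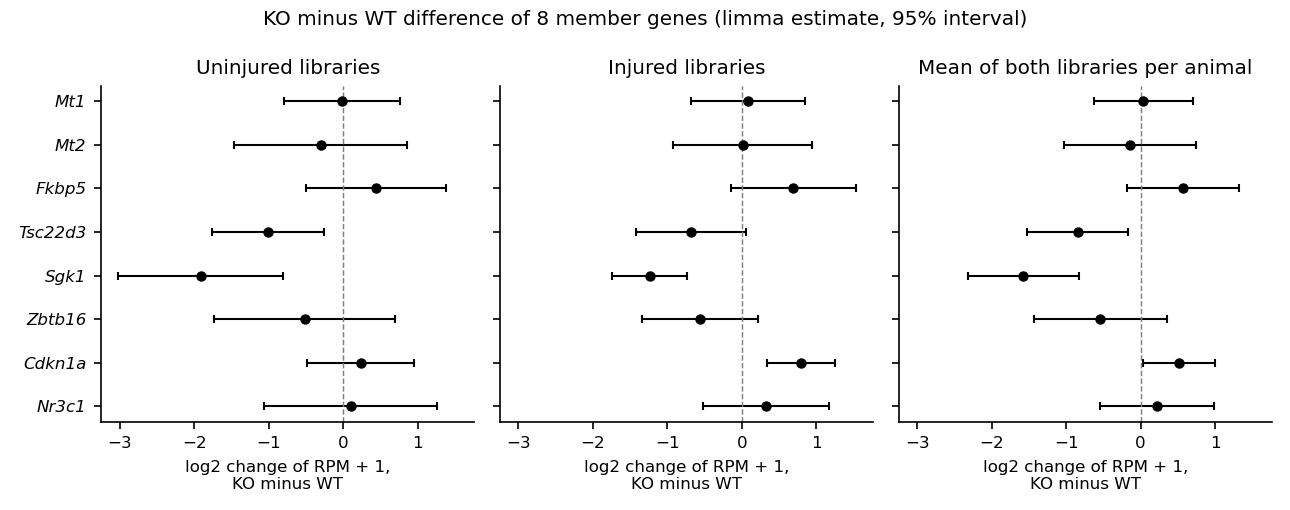
KO minus WT difference of log2(RPM + 1) (horizontal axis) for the 8 genes tested (vertical axis), in uninjured libraries, injured libraries and animal means, 3 against 3 in each; points are limma estimates and bars 95% intervals. Sgk1 lies at -1.91, -1.23 and -1.57, and Cdkn1a in injured libraries at 0.80, each with an interval that leaves out 0 although none passed the adjusted threshold.

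A wider list of 31 genes known to respond to glucocorticoids, which leaves out the 9 genes, was examined in the same fits. Hif3a was below the filter, and of the 30 tested 0 passed the adjusted p in either state. At an unadjusted limma p under 0.05, 5 were lower and 0 higher in uninjured KO muscle, where 10.7% and 3.53% of all genes were lower and higher. In injured muscle 6 were lower and 1 higher, where the shares of all genes were 5.26% and 5.06%. The median log2 difference of the 30 was -0.50 in uninjured muscle (all genes -0.18) and -0.26 in injured muscle (all genes 0.01). Estimates were below 0 for 23 and 20 of the 30, and for 20 to 26 of 30 in uninjured muscle under the other scalings tried. The counts depended on single libraries. Without uninjured KO replicate 3, 12 of 30 were lower and 0 higher at an unadjusted p under 0.05, where 2329 of all 12166 genes were under it in either direction. Of the 30, 2 then passed the adjusted p, as did 84 of all genes, 71 of them lower, and the median of all genes was -0.33. Without injured KO replicate 2, 11 were lower and 5 higher, where 4540 of all 12312 genes were under an unadjusted p of 0.05. Of the 30, 6 lower and 1 higher then passed the adjusted p, where 1175 lower and 1168 higher of all 12312 genes passed. Without uninjured WT replicate 2, the shallowest library, the count in uninjured muscle was again 5 lower and 0 higher.

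Bcl6, a transcriptional repressor, led the list in uninjured muscle, at 88.9 ± 9.73 RPM (SD, n = 3) in WT and 32.02 ± 17.4 RPM in KO. Its log2 difference was -1.56 (SE 0.36, limma adjusted p 0.116), and in injured muscle it was -1.12 (SE 0.29, limma adjusted p 0.279). Arrdc2, an arrestin family gene, differed by -2.34 (SE 0.60, limma adjusted p 0.151) in uninjured muscle, from 65.6 to 329 RPM in WT to 18.4 to 56.2 RPM in KO. Gadd45g, a growth arrest gene, led in injured muscle, at 174 ± 38.3 RPM in WT and 62.1 ± 25.7 RPM in KO (log2 difference -1.54, SE 0.35, limma adjusted p 0.218). Dusp1, a phosphatase that dampens MAP kinase signalling, differed by -1.35 (SE 0.33, limma adjusted p 0.0963) over animal means. These 4 were the only ones of the 30 with KO libraries entirely below WT in uninjured muscle, and 1 other lay entirely above. That is a share of the list near that of all genes in uninjured muscle, of which 15.5% lay entirely below. In injured muscle 7 of the 30 lay entirely below and 1 entirely above, where 8.63% and 8.29% of all genes did. Arrdc2 overlapped in injured muscle.

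**Figure D3:**
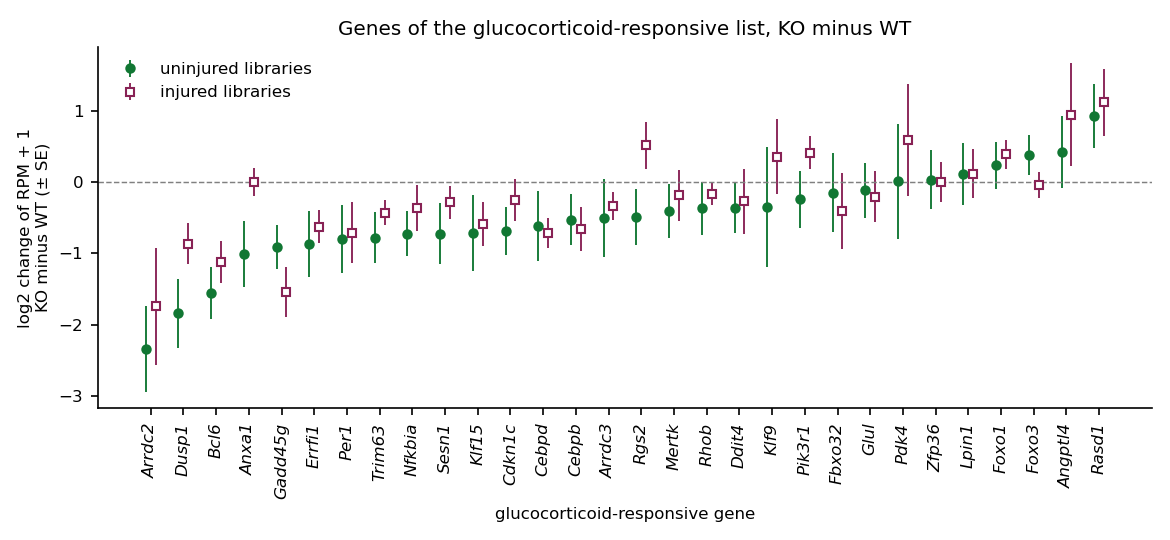
KO minus WT difference of log2(RPM + 1) with SE (vertical axis) for the 30 tested genes of the glucocorticoid-responsive list (horizontal axis), in uninjured (filled) and injured (open) libraries, 3 against 3 in each. Of the 30, 23 lie below 0 in uninjured and 20 in injured libraries, and none passed the adjusted p.

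Markers of other cell types and clock genes were summed or counted beside these results. Summed macrophage markers were at 128 to 244 RPM in uninjured WT and 73.4 to 116 RPM in uninjured KO, and at 152 to 212 RPM against 125 to 138 RPM in injured muscle, with 8 of 8 estimates lower in KO in both states. Summed adipocyte markers were at 1220 to 2039 RPM in uninjured WT and 1724 to 3236 RPM in uninjured KO, and at 387 to 1336 RPM against 1396 to 3032 RPM in injured muscle, with 7 of 7 estimates higher in KO. The summed muscle fibre markers did not overlap in uninjured muscle, at 111224 to 122668 RPM in WT and 159755 to 170153 RPM in KO, and overlapped in injured muscle. Of 14 circadian clock genes tested in uninjured muscle 12 had estimates below 0 (median -0.33, all genes -0.18), but 8 of 14 with edgeR, upper quartile or TMM scaling (medians -0.17, -0.10 and -0.11). Nr1d2 had the smallest p, at -1.31 (SE 0.24, limma adjusted p 0.0646), and Per1 is in both this list and the glucocorticoid-responsive one. In injured muscle Nr1d2 was at -0.74 (SE 0.25, limma adjusted p 0.404). No list in this paragraph had a gene past the adjusted p in either state. The part of these shifts in the differences of Sgk1, Tsc22d3 and the wider list was not tested.

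Cdkn1a (ENSMUSG00000023067.13) encodes p21, an inhibitor of cyclin-dependent kinases that is induced by p53, by glucocorticoids and by myogenic factors at cell cycle exit. After injury it was at 17.2, 11.5 and 15.5 RPM in WT and 27.0, 25.2 and 25.9 RPM in KO, with no overlap. Without injury it was at 15.99, 15.96 and 19.2 RPM in WT and 24.9, 14.2 and 23.0 RPM in KO, and KO replicate 2 lay below every WT library. Mean levels after injury of 14.7 RPM (SD 2.92, n = 3) for WT against 26.0 RPM (SD 0.881, n = 3) for KO gave a 1.77-fold higher mean in KO. The log2 difference was 0.80 (SE 0.19, 95% interval 0.34 to 1.26, unadjusted p 0.00431, limma adjusted p 0.251) in injured muscle. In uninjured muscle it was 0.24 (SE 0.32, limma adjusted p 0.788), and over animal means 0.52 (SE 0.21, limma adjusted p 0.275). The authors' deposited table gives Cdkn1a a q-value of 0.0698 in injured muscle. With 1 library left out at a time, the difference ran from 0.64 to 0.91 in injured muscle. It passed only without KO replicate 2 (0.82, limma adjusted p 0.0292), the fit in which 2343 of 12312 genes passed. In uninjured muscle it ran from 0.09 (without KO replicate 1) to 0.47 (without KO replicate 2).

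Genes of related groups were examined beside Cdkn1a. Of 17 p53 target genes tested, 0 were called in either state, and the median difference was -0.36 in uninjured muscle (all genes -0.18) and 0.19 in injured muscle (all genes 0.01). With upper quartile and TMM scaling the uninjured median was -0.11 and -0.13, where that of all genes was 0.04 and 0.02. In uninjured muscle Fas, a death receptor, had the smallest p, at -1.24 (limma adjusted p 0.153). The 2 with the smallest unadjusted p in injured muscle had opposite signs: Phlda3, which restrains Akt, was at -1.17 (limma adjusted p 0.377), and Btg2, an antiproliferative gene, at 0.57 (limma adjusted p 0.377). Of 5 other CDK inhibitors tested 0 were called, and Cdkn1c, which glucocorticoids also induce, was at -0.68 (limma adjusted p 0.390) in uninjured and -0.25 (limma adjusted p 0.815) in injured muscle.

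Mt1 (ENSMUSG00000031765.8) and Mt2 (ENSMUSG00000031762.7) are neighbouring genes with closely similar coding sequences, and how shared reads were assigned is not stated, so the split between them is uncertain. Mt1 was at 38.9, 29.3 and 32.1 RPM in uninjured WT and 39.4, 44.1 and 20.3 RPM in uninjured KO. It was at 38.1, 16.1 and 25.7 RPM in injured WT and 32.8, 27.1 and 21.5 RPM in injured KO. The groups overlapped, and over all 12 libraries the highest value was 2.73-fold above the lowest. The log2 difference was -0.01 (SE 0.34, limma adjusted p 0.993) in uninjured and 0.09 (SE 0.32, limma adjusted p 0.953) in injured muscle, with intervals of -0.79 to 0.76 and -0.68 to 0.85. In uninjured muscle its sign depended on the scaling, at 0.24 with upper quartile scaling.

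Mt2 was at 4.41, 3.72 and 1.32 RPM in uninjured WT and 1.103, 4.88 and 1.57 RPM in uninjured KO. It was at 4.35, 1.35 and 2.14 RPM in injured WT and 2.17, 4.15 and 1.48 RPM in injured KO. These values rest on 7 to 137 reads per library, and the highest and the lowest both came from uninjured KO. The log2 difference was -0.30 (SE 0.51, limma adjusted p 0.837) in uninjured and 0.01 (SE 0.39, limma adjusted p 0.996) in injured muscle. The 95% intervals were -1.46 to 0.86 and -0.92 to 0.94. Of 17 zinc transporter and metallothionein genes tested, 0 were called, and the median difference was -0.02 in uninjured muscle (all genes -0.18) and 0.04 in injured muscle (all genes 0.01). Of 11 oxidative stress genes tested 0 were called. Gclc, which makes glutathione's precursor, was lowest by p, at -0.89 (limma adjusted p 0.378) in uninjured and -0.63 (limma adjusted p 0.313) in injured muscle.

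The metal response element was searched by its core, TGCACNC or TGCGCNC on either strand, in the 250 bases before each start site, and 24.2% of promoters held at least 1. Mt2 held 3, as many as 1.56% of promoters, Mt1 held 1, and the other genes with an entry held 0. The promoter of Mt2 (from RefSeq, GRCm38.p6, plus strand, outside the gene's span) is shown because it held the most, with the 3 cores in capitals. The Mt1 start used, at 94179089, lies inside the gene's own span, which begins at 94178883. Most of its window was thus within the gene, and the count of 1 covers few of the bases before the gene. For Mt1, 30 bases around the core are shown.
Mt2, chr8:94172368-94172617: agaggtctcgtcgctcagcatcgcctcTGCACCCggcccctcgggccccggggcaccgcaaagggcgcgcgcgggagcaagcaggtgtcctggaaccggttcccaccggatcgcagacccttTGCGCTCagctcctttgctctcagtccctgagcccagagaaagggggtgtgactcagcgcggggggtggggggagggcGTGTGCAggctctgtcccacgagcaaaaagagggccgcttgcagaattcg
Mt1, chr8:94179054-94179083: gcggtcccgctgTGCACACtggcgctccag

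Lcn2 (ENSMUSG00000026822.14) encodes lipocalin 2, an iron-siderophore binding protein made by neutrophils and inflamed tissue. It was near the detection floor, at 0.451, 1.06 and 0.231 RPM in uninjured WT and 1.37, 0 and 0.538 RPM in uninjured KO. It was at 0.450, 0.112 and 0.689 RPM in injured WT and 0.964, 0.830 and 0.709 RPM in injured KO. These are 0 to 36 reads per library. The injured KO libraries, on 15 to 36 reads, lay above the injured WT libraries, on 3 to 18 reads, and with no filter the log2 difference there was 0.39 (SE 0.18, limma adjusted p 0.637). Summed neutrophil markers were at 2.66 to 13.97 RPM in every library, with Elane and Ngp at 0 in all uninjured WT libraries, Mmp8 and Retnlg at 0 in all uninjured KO libraries, and Retnlg at 0 in all injured WT libraries. Of 9 acute phase and cytokine response genes tested 0 were called, and Serpina3n, an acute phase protease inhibitor, had the smallest unadjusted p in injured muscle, at 1.39 (limma adjusted p 0.478).

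Injury itself moved none of these genes past the threshold. Injured minus uninjured, 0 of 13337 genes passed the adjusted p in WT and 0 in KO, and 0 showed a different response by genotype (limma). The unadjusted counts were 172, 468 and 208 genes (1.29%, 3.51% and 1.56%), and edgeR and DESeq2 also called 0 in each. The median of all genes was 0.09 in WT and 0.29 in KO, so estimates in KO are read against that shift. Sgk1 had the largest change in KO, 0.88 (SE 0.42, limma adjusted p 0.728): KO animals 1 and 2, at 25.1 and 23.4 RPM without injury, were at 67.2 and 63.7 RPM with it, and animal 3 was at 97.5 and 88.4 RPM. In WT the change of Sgk1 was 0.21 (SE 0.42, limma adjusted p 1), and the difference between the genotypes' changes was 0.68 (SE 0.59, limma adjusted p 1). Cdkn1a was higher after injury in 3 of 3 KO animals, as were 19.8% of all genes, at 0.35 (SE 0.26, limma adjusted p 0.728), an estimate that was -0.01 with upper quartile scaling. In WT it was -0.21 (SE 0.26, limma adjusted p 1), and the KO changes all lay above the WT changes (a difference of 0.56, SE 0.36, limma adjusted p 1), as they did for 4.66% of all genes. Fkbp5 was also higher in 3 of 3 KO animals, at 0.35 (SE 0.41, limma adjusted p 0.772; -0.01 with upper quartile scaling). Mt1 was lower in 3 of 3 WT animals, as were 8.5% of all genes, at -0.39 (SE 0.35, limma adjusted p 1), and in 2 of 3 KO animals, at -0.29 (SE 0.35, limma adjusted p 0.775).

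**Figure D4:**
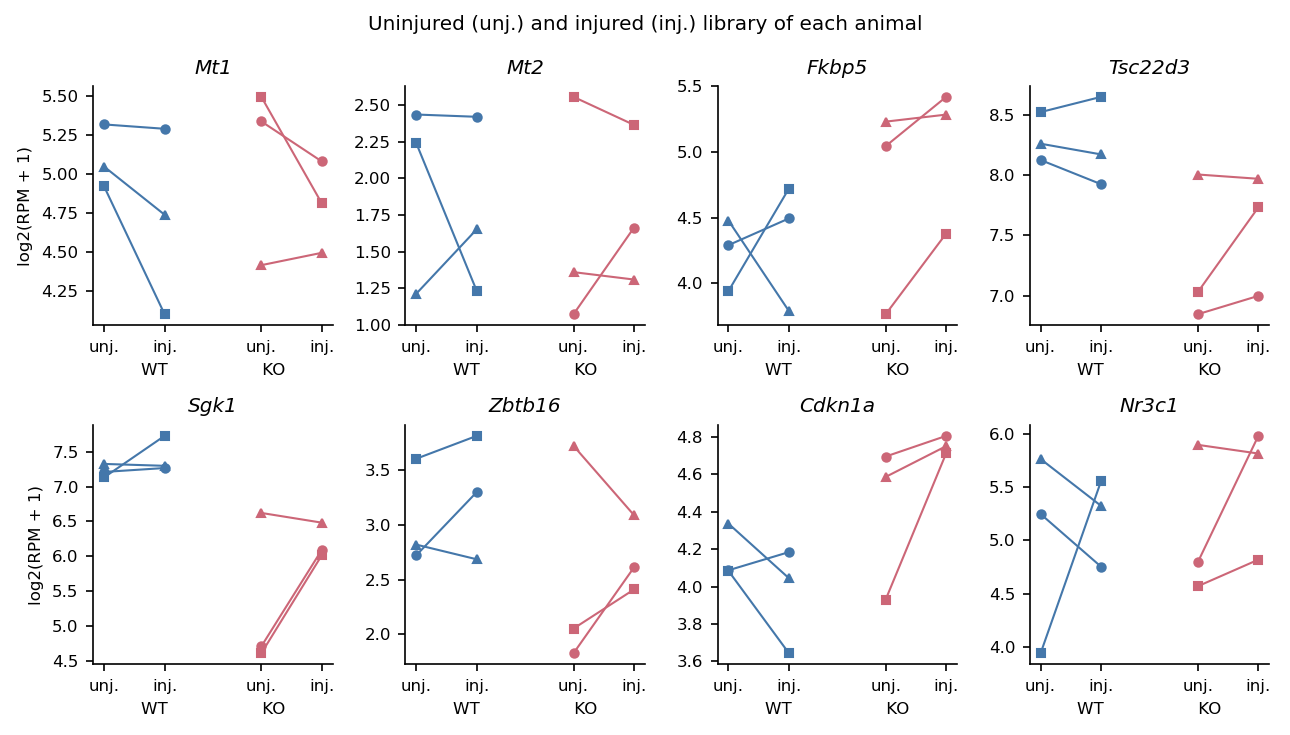
Level in log2(RPM + 1) (vertical axes, which do not start at 0) of 8 genes in the uninjured and injured library of each animal, joined by a line (WT blue, KO red; circle, square and triangle mark animals 1, 2 and 3). The Sgk1 lines of KO animals 1 and 2 climb while that of animal 3 stays level, and the 3 KO lines of Cdkn1a end close together, at 25.2 to 27.0 RPM.

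Across the 12 libraries, Sgk1, Tsc22d3 and Zbtb16, the last of which overlapped between the genotypes, had similar patterns. Pearson's r of log2(RPM + 1) was 0.90 for Tsc22d3 and Sgk1, 0.79 for Tsc22d3 and Zbtb16 and 0.77 for Sgk1 and Zbtb16. After the mean of each group was taken off, r was 0.78, 0.79 and 0.84. These are descriptions over 12 libraries of 6 animals that share depth and scaling within a library. Fkbp5 and Sgk1 had r of -0.10 (0.56 after the group means), and Mt1 and Mt2 had r of 0.52. Mt1 ran against Tsc22d3, with r of -0.60 (-0.91 after the group means). Of 7137 other genes with a mean of at least 10 RPM, those most like Fkbp5 were Tgfb3 (r 0.94), Mybph (0.94), Ctdnep1 (0.94), Mbd2 (0.94) and Slc39a3 (0.93). Those most like Cdkn1a were Dhx38 (0.94), Tbc1d17 (0.93), Pygb (0.93), Ppp1r9b (0.92) and Slc25a23 (0.92). For Mt2 they were Smpd2 (0.88), Snx8 (0.86), Utp14a (0.84), Lrrc8a (0.82) and Arap1 (0.82).

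Myf6 binding near the genes was read from the authors' 12898 deposited peaks, whose fold enrichment over background is the authors' value. They come from myotubes in culture, not from the muscle sampled for RNA. Of 7 genes with a start site in the promoter table, 1 had a peak summit within 10 kb of a start, against 12.6% of 17491 protein-coding genes, and 4 had one within 50 kb, against 39.1%. A summit of at least 10-fold enrichment within 10 kb was found for 0 of 7, against 3.54%. The nearest to a start was in Tsc22d3, at chrX:140556083-140556209 inside the gene, 7.56 kb upstream of a start within the gene, with a fold enrichment of 7.18. Sgk1 had 1 peak within 50 kb, at chr10:21923560-21923686 inside the gene, 41.5 kb downstream of its first start, with a fold enrichment of 7.14. Mt1, Mt2 and Zbtb16 had 0 peaks within 50 kb of the gene.

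Cdkn1a, at chr17:29090979-29100722, had 10 peaks within 50 kb. Of these, 7 lay upstream, 27.5 to 39.9 kb from the nearest start. How many genes have as many peaks was not counted, so these numbers do not set Cdkn1a apart from other genes. The highest by fold enrichment was at chr17:29056767-29057064, 34.1 kb upstream, with 12.9, which ranked 1427 of 12898, and the next were at chr17:29050789-29051192 with 12.5 and at chr17:29057981-29058252 with 10.2. The nearest protein-coding start to 6 of the 7 was that of Srsf3, a splicing factor gene, not of Cdkn1a. The third lay over Trp53cor1, a non-coding RNA gene. The Myf6 E-box, searched as CAGCTG or CAGGTG on either strand, occurred before 26.7% of start sites, and among these genes before 1 start each of Mt2, Sgk1 and Cdkn1a.

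**Figure D5:**
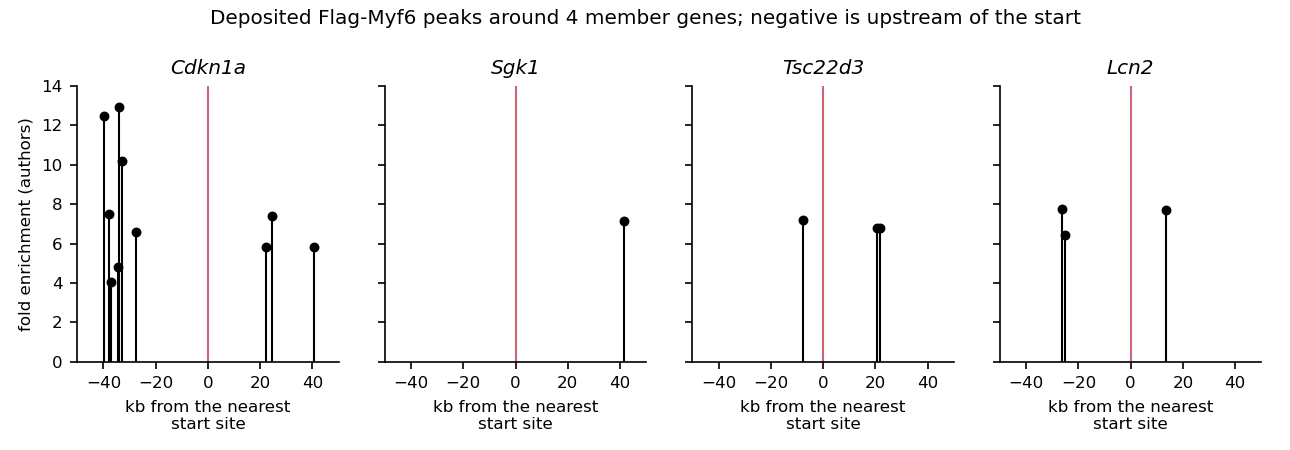
Deposited Flag-Myf6 peaks (points) by distance of the summit from the gene's nearest start site in kb (horizontal axis, negative is upstream, red line at the start) and the authors' fold enrichment (vertical axis, from 0), 1 ChIP library. Cdkn1a has a group of 7 peaks 27.5 to 39.9 kb upstream that reaches 12.9, and the single Sgk1 peak is 41.5 kb downstream at 7.14.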

How the data were processed

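RNA was extracted with Trizol and libraries were made with the TruSeq RNA v2 kit, per the labels' protocols. The submitters' processing notes name HISAT2 2.1.0, SAMtools, featureCounts, DESeq2, Bowtie 1.1.0, MACS2 2.1.0.20140616, mm10 and GRCm38.p5, with no roles. The authors deposited a table of uninjured and one of injured libraries, with RPM per gene (a read count scaled to the library). The same tables hold a log2 fold change of WT over KO and its standard error, and, per the file headers, the authors' raw p-value and their q-value. Its sign is turned here to KO over WT. The authors deposited a peak list with the pileup signal, the fold enrichment and both significance values as −log10, per the file headers, called without replicates. Whether counting used strand is not stated, so reads of overlapping genes on opposite strands cannot be told apart.

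Whole reads were recovered from the RPM steps, and 100% of the values came out whole within 0.1 read. limma 3.58.1 (R 4.3.3; lmFit, eBayes with trend) was fitted to log2(RPM + 1) over every gene that reached 1 RPM in 3 or more libraries, with two-sided p-values adjusted by the Benjamini-Hochberg method over all genes and a threshold of 0.05. KO against WT was fitted on 6 libraries per state and on 6 animal means, and injury and the genotype by injury term on all 12. Changes on this scale understate those of low genes. In the KO against WT fits, p-values measure the spread between 3 animals per genotype. The injury and genotype by injury fits had no term for the animal. Their p-values treat the 2 libraries of an animal as independent and measure a spread pooled over the 4 groups. edgeR 4.0.16 and DESeq2 1.42.0 on the recovered reads, 3 other scalings, other filters, a pseudocount of 0.1, no trend, a replicate block and leaving out each library were alternatives. The fits were also run on simulated reads with the same spread for every gene, no animal effect and no library standing apart. That run therefore does not show how the fits behave on these libraries. The 9 genes, the gene lists and the tests were chosen with earlier results of these data known. All 9 genes are named. Of a list, genes past the threshold were to be named (at most 5), or, where none passed, the 2 with the smallest unadjusted p. Likeness was Pearson's r over 12 libraries. Promoter sequences came from a RefSeq table of GRCm38.p6, which shares the coordinates of GRCm38. Of the 9 genes, 7 matched an entry there. Same-numbered libraries within a genotype are read as 1 animal from the labels. Their deviations from the group means had a mean correlation of 0.39 in KO and 0.02 in WT. Between uninjured and injured libraries of different numbers it was -0.19 in KO and -0.01 in WT. In WT the values ran from -0.23 to 0.28 for same and from -0.40 to 0.31 for different numbers. The WT values thus do not bear out the reading as 1 animal, which rests on the labels.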

Additional observations from a re-analysis of the deposited data

How the results depend on the processing

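The number of genes past the adjusted p varied widely between the settings. In uninjured muscle, where 35 passed, it was 55 with edgeR, 663 with DESeq2, 156 with upper quartile scaling (99 higher in KO, against 16 of 35), 107 with TMM scaling (61 higher), 199 with scaling to reads outside mitochondrial genes (31 higher), 1 without a filter, 7 with 1 RPM in every library, 20 with a pseudocount of 0.1 and 331 by the authors' deposited q-value. In injured muscle, where 34 passed, it was 427 with DESeq2, 19 without a filter, 4 with 1 RPM in every library and 225 by the authors' deposited q-value. Over animal means, where 155 passed, it was 51 with edgeR, 667 with DESeq2, 274 with scaling to reads outside mitochondrial genes, 35 without a filter, 23 with 1 RPM in every library and 89 with a pseudocount of 0.1. A replicate block gave 752, 0 and 80 genes. Across genotypes the libraries share only a replicate number, not an animal, so this block has no basis in the design. The correlation of deviations between same-numbered libraries was 0.04 to 0.37 in uninjured and -0.60 to -0.30 in injured muscle. With this block Sgk1 and Tsc22d3 in uninjured muscle had limma adjusted p-values of 0.00797 and 0.0427, which therefore lend no support. With the animal as the block no injury call changed. Leaving out 1 library gave 3 to 84, 0 to 2343 (2343 without injured KO replicate 2) and 5 to 2409 (2409 without KO replicate 2) genes, and 0 to 1 for injury in KO. Of the genes examined, 4 had a peak within 50 kb and 0 a peak of at least 10-fold within 10 kb, against 1 within 10 kb.

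Of 928 alternative values for 48 member differences, 825 kept their direction and side of the threshold, 19 passed it and 84 changed sign. None of the 84 had an adjusted p under 0.05. Sgk1 was lower in KO under every alternative run, with adjusted p-values of 0.00213 to 0.613 in uninjured, 0.000176 to 0.561 in injured muscle and 0.000867 to 0.323 over animal means. It passed with DESeq2 in all 3, and over animal means also with scaling to reads outside mitochondrial genes (0.0355). Cdkn1a passed with DESeq2 in injured muscle (0.00453) and over animal means (0.0203). The cause of the changes of sign was not tested. KO minus WT in uninjured muscle, Mt1 was at 0.35 with edgeR, 0.36 with DESeq2, 0.24 and 0.22 after upper quartile and TMM scaling and 0.36 in the authors' deposited table, and Mt2 at 0.051, 0.069 and 0.074 with edgeR, DESeq2 and that table. Nr3c1 there was at -0.048 and Mt1 over animal means at -0.045 with scaling outside mitochondrial genes. Mt2 was at -0.0049 with edgeR in injured muscle, and at 0.11 and 0.13 with edgeR and DESeq2 over animal means. For injury in WT, Fkbp5 was at -0.0022 with scaling outside mitochondrial genes. For injury in KO with edgeR, DESeq2, upper quartile and TMM scaling, Mt2 was at -0.40, -0.44, -0.18 and -0.10, Tsc22d3 at -0.013, -0.022, -0.10 and -0.00084, and Zbtb16 at -0.26, -0.26, -0.13 and -0.046. With upper quartile scaling Fkbp5 was at -0.011 and Cdkn1a at -0.0075. For the genotype by injury term, Mt1 was at -0.33, -0.34, -0.19 and -0.11 in the same order, and Mt2 at -0.070 and -0.081 with edgeR and DESeq2. Fkbp5 was at -3.6e-05 with edgeR and -0.031 with upper quartile scaling, Nr3c1 at -0.063 with the latter, and Zbtb16 at 0.088 with scaling outside mitochondrial genes and 0.0019 with a pseudocount of 0.1.

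Leaving out 1 library, KO minus WT in uninjured muscle ranged from -0.22 to 0.32 for Mt1 and -0.42 to 0.49 for Nr3c1. In injured muscle it ranged from -0.22 to 0.38 for Mt1 and -0.28 to 0.34 for Mt2. Over animal means it ranged from -0.16 to 0.28 for Mt1, -0.51 to 0.14 for Mt2 and -0.056 to 0.52 for Nr3c1. Injury in WT ranged from -0.57 to 0.073 for Mt2, -0.10 to 0.37 for Fkbp5, -0.25 to 0.11 for Tsc22d3, -0.056 to 0.51 for Zbtb16 and -0.29 to 0.62 for Nr3c1. Injury in KO ranged from -0.18 to 0.56 for Mt2, -0.11 to 0.67 for Fkbp5 and -0.18 to 0.76 for Zbtb16. The genotype by injury term ranged from -0.24 to 0.39 for Mt1, -0.21 to 0.57 for Fkbp5, -0.40 to 0.55 for Zbtb16 and -0.17 to 0.74 for Nr3c1. Depth limited Lcn2 and Mt2 most, at 0 to 36 and 7 to 137 reads per library. The list counts without single libraries were chosen after seeing the data.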

Other observations

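Other lists that glucocorticoid or injury state could touch had 0 genes past limma's adjusted p in KO against WT. In uninjured muscle 6 of 11 immediate early genes tested had lower and 5 higher estimates in KO, against 4 and 7 in injured muscle. Their median difference was -0.11 and 0.06, where that of all genes was -0.18 and 0.01. Among them Nr4a1, an orphan nuclear receptor induced by stimuli, was at -1.17 (SE 0.45, limma adjusted p 0.279) in uninjured and -1.0001 (SE 0.24, limma adjusted p 0.258) in injured muscle. Of 7 and 8 denervation-responsive genes tested in the 2 states, the median difference was -0.15 in uninjured and -0.01 in injured muscle. That of all genes was close by, at -0.18 and 0.01. Osmr, the oncostatin M receptor, was at -1.40 (SE 0.34, limma adjusted p 0.138) in uninjured muscle. Among 5 markers of red blood cells, Hbb-bt was at -1.68 (SE 0.37, limma adjusted p 0.0970) in uninjured muscle. The median difference of the 5 was -0.67 there, with 1 estimate higher in KO. In injured muscle it was -0.03, with 2 estimates higher in KO. The median difference of 8 endothelial markers was 0.12 in uninjured and 0.44 in injured muscle, and that of 7 fibroblast markers -0.67 and -0.32. Summed endothelial markers were at 584 RPM in injured KO replicate 2, against 340 and 312 RPM in the other injured KO libraries.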
